A study of Mus musculus with 16 samples.

Results

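The genes described here are 10 components of the extracellular matrix, namely Fn1, Thbs1, Sparc, Col4a6, Col1a1, Col1a2, Col3a1, Col5a2, Dcn and Hspg2. They were chosen by gene symbol from the 22287 genes of the table, after earlier looks at their levels and at the spread between replicates, so their levels are given as a description. Bone marrow derived macrophages (BMDMs) of C57BL/6J mice aged 8 weeks were grown for 7 days with GM-CSF (GM) or M-CSF (M), a pair of growth factors that drive marrow cells towards macrophages. The dishes were tissue-culture-treated polystyrene (TC) or untreated polystyrene (noTC), and the cells then received vehicle (steady state) or the bacterial product LPS for 3 h. RNA-seq was done on 16 libraries, 2 in each of the 8 groups GM-TC, GM-noTC, GM-TC-LPS, GM-noTC-LPS, M-TC, M-noTC, M-TC-LPS and M-noTC-LPS. Every group is unsorted wild-type culture. The study calls the replicates biological, while the labels do not tie them to separate mice, so the p-values measure the spread between these libraries. The fit pools this spread over all groups. In GM-TC the chi-square of counts between its libraries was 12.9 per degree of freedom, against 1.92 to 5.27 in the other groups. Standard errors that involve GM-TC do not reflect the wider spread of that group alone.

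Total counts per library lay between 17527802 and 31458363, and 3 counts corresponded to between 0.0954 and 0.171 CPM, the counts scaled to the library total, a limit that covers counting error only. The 12 macrophage markers summed to 22300 to 53400 CPM in a library and none was at 0. The 4 TC steady state libraries stood apart, with 38.2 to 119 CPM of a list of 22 cardiac muscle genes against 1.27 to 2.13 CPM in the other 12 libraries. Levels below are CPM scaled by library size, and log2 fold changes come from edgeR's quasi-likelihood test over all 16 libraries with trimmed mean (TMM) scaling, called at a Benjamini-Hochberg (BH) adjusted p under 0.05 over 12514 genes. All 10 genes passed the expression filter.

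Fibronectin and thrombospondin are secreted adhesive glycoproteins that bind integrins and other receptors on the cell surface. Collagens I, III and V build fibrils and collagen IV builds the sheet-like network of basement membranes, together with proteoglycans such as perlecan. Most of this matrix is laid down by fibroblasts and other stromal cells, whereas macrophages are known to make fibronectin and thrombospondin-1 and to degrade or take up collagen.

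The promoter of Col4a6 is shown because this collagen IV chain was the only one of the 10 genes called higher in M than in GM cells, and that of Col4a5 because the genes lie head to head on chromosome X and were both higher in M cells. The starts of transcription in RefSeq on GRCm38.p6 are 1343 bases apart. The 250 bases before each start are at chrX:141474077-141474326 on the minus strand for Col4a6 and at chrX:141475169-141475418 on the plus strand for Col4a5. The motifs searched on either strand were the CCAAT box, the SP1 motif GGGCGG, the TATA box written as TATAAA, the AP-1 motif written as TGANTCA, and the NF-kB consensus. Capitals mark the matches, where the reverse complement of GGGCGG appears as CCGCCC.
Col4a6: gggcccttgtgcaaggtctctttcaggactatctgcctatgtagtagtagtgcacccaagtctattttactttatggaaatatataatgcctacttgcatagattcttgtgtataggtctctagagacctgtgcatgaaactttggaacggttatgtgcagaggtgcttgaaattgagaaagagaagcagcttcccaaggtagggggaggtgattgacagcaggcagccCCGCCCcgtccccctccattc
Col4a5: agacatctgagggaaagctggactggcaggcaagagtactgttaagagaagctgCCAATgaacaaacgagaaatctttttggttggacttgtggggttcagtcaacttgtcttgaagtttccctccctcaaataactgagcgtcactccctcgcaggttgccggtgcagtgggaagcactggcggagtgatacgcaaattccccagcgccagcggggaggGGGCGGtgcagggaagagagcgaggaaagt
GGGCGG began 21 bases before the start of Col4a6, on the opposite strand, and 30 bases before that of Col4a5. CCAAT was found 196 bases before the start of Col4a5 and not in the Col4a6 window. Of 32851 promoters of this length, 32.7% held GGGCGG, 33.8% held CCAAT, 12.4% held TATAAA, 6.75% held TGANTCA and 0.0852% the NF-kB consensus. In the promoter table used here, 5 of the 10 genes had an entry.

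The genes fell into a steady and a low set. A gene was called steady in a group when both libraries had at least 1 CPM and the higher was at most 2 times the lower. Fn1 and Thbs1 were steady in 8 of 8 groups and Col4a6 in 4 of 8, the minimum for the steady set. The next gene, Dcn, was steady in 1 group, and the other 6 genes were steady in 0. With 5 CPM in place of 1 CPM only Fn1 and Thbs1 qualified, and with 0.5 CPM Col3a1 joined the 3 genes.

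Fn1 (ENSMUSG00000026193), which encodes fibronectin, lies on the minus strand of chromosome 1 at 71585520 to 71653200 in GRCm38, as do all positions below. The GM-TC libraries had 442 and 325 CPM of Fn1, the GM-noTC libraries 1245 and 1209, the GM-TC-LPS libraries 631 and 800.2, and the GM-noTC-LPS libraries 1852 and 1833. The M-TC libraries had 2.49 and 2.13 CPM, M-noTC had 14.25 and 12.5, M-TC-LPS had 9.29 and 9.99, and M-noTC-LPS had 14.4 and 13.2. All GM libraries were above all M libraries, M-TC was lowest, and the levels of M-noTC and M-noTC-LPS overlapped. Per kilobase of exon, the mean level of Fn1 went from 0.198 ± 0.0217 CPM (SD, n = 2) in M-TC to 158 ± 1.15 in GM-noTC-LPS.

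Thbs1 (ENSMUSG00000040152; chromosome 2, 118111876 to 118127133, plus strand) encodes thrombospondin-1, which binds CD36 and CD47 and activates latent TGF-beta. The GM-TC libraries had 117 and 105 CPM of Thbs1, the GM-noTC libraries 176 and 175, the GM-TC-LPS libraries 404 and 459.6, and the GM-noTC-LPS libraries 766 and 743. The M-TC libraries had 22.05 and 19.8 CPM, M-noTC had 11.1 and 10.7, M-TC-LPS had 23.4 and 24.5, and M-noTC-LPS had 21.8 and 20.15. The 8 GM libraries were again above the 8 M libraries, but M-noTC and not M-TC was the lowest group, and M-TC-LPS lay above the other M groups. Per kilobase, Thbs1 was above Fn1 in all 4 M groups (3.44 ± 0.264 against 0.198 ± 0.0217 CPM in M-TC) and below it in GM-TC (18.3 ± 1.39 against 32.8 ± 7.10), GM-noTC and GM-noTC-LPS.

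Col4a6 (ENSMUSG00000031273; chromosome X, 141165403 to 141474076, minus strand) encodes a chain of basement membrane collagen IV. The M-TC libraries had 3.38 and 2.34 CPM of it, M-noTC had 8.08 and 7.28, M-TC-LPS had 1.555 and 1.54, and M-noTC-LPS had 4.795 and 5.59. The 8 GM libraries held 0 to 6 counts each, at most 0.275 CPM. With this scaling by library size the 4 M groups did not overlap with each other, with M-noTC highest and M-TC-LPS lowest. With TMM scaling M-noTC (5.83 and 5.32 CPM) overlapped with M-noTC-LPS (5.70 and 6.79). M-TC (2.43 and 1.68) then overlapped with M-TC-LPS (1.97 and 1.98), so the order of the M groups rests on the scaling.

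**Figure D1:**
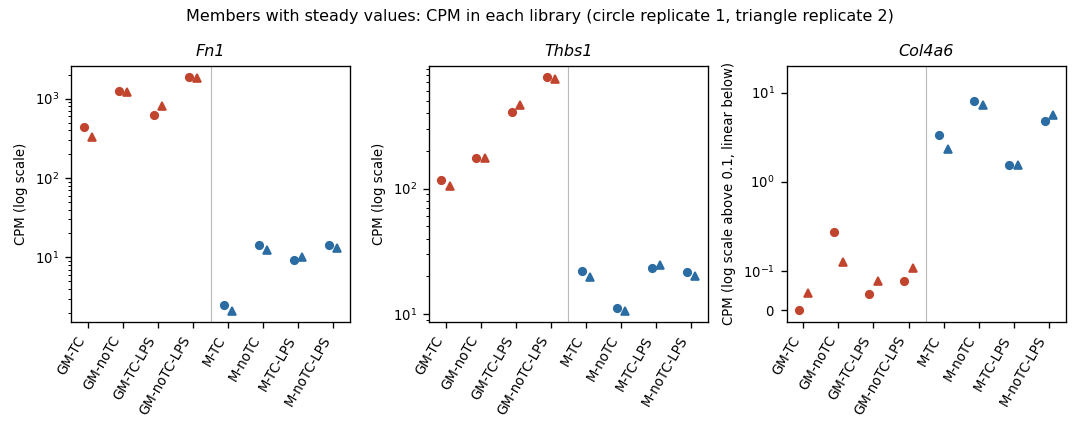
CPM of Fn1, Thbs1 and Col4a6 (vertical axes, log scale, linear below 0.1 CPM for Col4a6) in each of the 16 libraries by group (horizontal axis), with red for GM, blue for M, circles for replicate 1 and triangles for replicate 2. All GM libraries lie above all M libraries for Fn1 and Thbs1 and below them for Col4a6.

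The first comparison set GM against M cells on the same dish and treatment. Fn1 was higher in GM cells by a log2 fold change of 7.68 (SE 0.169, adjusted p = 3.5e-20) on TC, 6.82 (SE 0.133, 4.9e-21) on noTC, 6.18 (SE 0.136, 3.9e-20) on TC after LPS and 7.13 (SE 0.135, 3.1e-21) on noTC after LPS. Thbs1 was higher in GM cells by 2.72 (SE 0.0775, adjusted p = 3.2e-18), 4.30 (SE 0.0804, 2.2e-21), 4.14 (SE 0.0739, 1.4e-21) and 5.24 (SE 0.0767, 8.4e-23) in the same order. Col4a6 was lower in GM cells in all 4 comparisons. Against a floor of 3 counts over the GM group, it was at least 30.4-fold lower on TC, and at least 25.1-fold without M-TC replicate 1. On TC after LPS the GM group held 3 counts, so the ratio of 26.9 is no lower bound. The fitted log2 fold change there was -4.65 (SE 0.538), and -4.33 without GM-TC-LPS replicate 1. On noTC, where both groups were above that floor, its log2 fold change was -4.95 (SE 0.337, adjusted p = 1.5e-11), and -5.69 (SE 0.387, 1.5e-11) after LPS. Col4a6 passed the expression filter through the M groups alone, since GM libraries held at most 6 counts. Its direction was thus favoured by the filter, and its p-values in these comparisons are a description.

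Of the 10 genes, 2 were called higher and 1 lower in GM on TC, where 32.6% of all genes tested were called higher and 28.9% lower. On noTC, 3 were called higher and 1 lower (31.4% and 30.7% of all genes), Dcn joining Fn1 and Thbs1. Dcn was at 0 in both M-noTC libraries, and in GM-noTC it was at least 9.40-fold higher (adjusted p = 0.0049). On noTC after LPS, 2 were called higher and 1 lower (33.5% and 32.6%). On TC after LPS, 7 were called higher and 1 lower (33.9% and 32.9%), and 5 of the 7 belong to the low set described below. Scaling by library size only kept these counts, while the share of higher calls among all called genes moved from 53% to 27.9% on TC and from 50.6% to 27.5% on noTC, and the median over all genes became -0.29 in both.

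**Figure D2:**
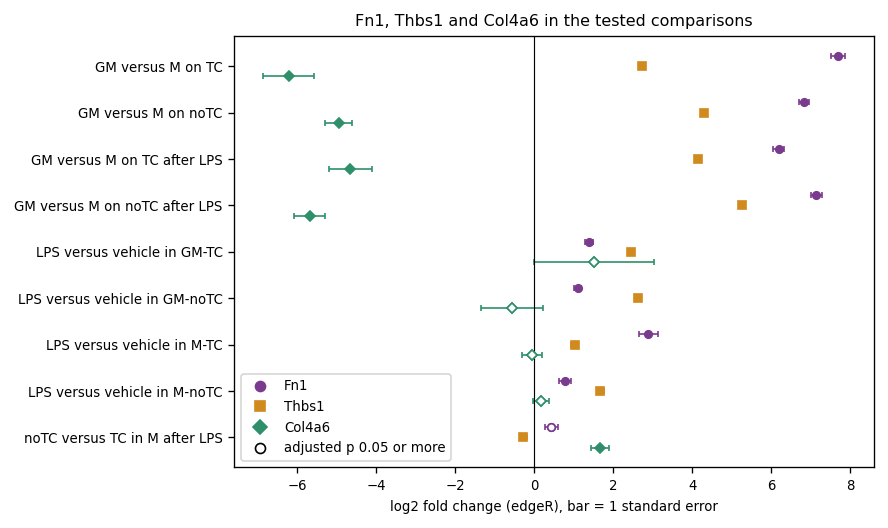
Log2 fold changes (horizontal axis, positive where the group named before "versus" is higher) of Fn1, Thbs1 and Col4a6 in 9 tested comparisons (vertical axis), with bars of 1 standard error and open symbols where the adjusted p was 0.05 or more. Fn1 and Thbs1 lie right of 0 and Col4a6 left of 0 in the GM versus M comparisons; the Col4a6 values on TC are fitted against 1 to 3 counts in GM and are no bound.

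Upon LPS challenge, Fn1 and Thbs1 rose in all 4 kinds of culture. Thbs1 rose by 2.44 (SE 0.0651, adjusted p = 5.7e-19) for GM-TC cells, 2.615 (SE 0.0641, 1.3e-19) for GM-noTC, 1.02 (SE 0.0858, 3.9e-10) for M-TC and 1.67 (SE 0.0914, 2.1e-13) for M-noTC. Fn1 rose by 1.38 (SE 0.0989, adjusted p = 3.5e-11) for GM-TC cells, 1.095 (SE 0.0968, 1.4e-09) for GM-noTC, 2.88 (SE 0.239, 3.1e-10) for M-TC and 0.78 (SE 0.153, 9.5e-05) for M-noTC. With scaling by library size only, the Fn1 value in M-noTC was 0.059 (adjusted p = 0.74), and that of Thbs1 in M-TC was 0.20 (adjusted p = 0.044). In another alternative, a share of the mean over the other groups outside TC steady state was taken off the noTC steady state libraries. It was 0.675% for GM and 0.6% for M. These are median excesses over TC of genes under 1 CPM on TC and at 100 CPM or more elsewhere. The Fn1 value in M-noTC was then 1.40 (adjusted p = 1.6e-07). Col4a6 was not called in M-TC (-0.057, SE 0.263, adjusted p = 0.86) or in M-noTC (0.17, SE 0.192, adjusted p = 0.45). Under library size scaling it was lower after LPS, by -0.88 (adjusted p = 0.0036) in M-TC and -0.56 (adjusted p = 0.0099) in M-noTC. That scaling moved the median log2 fold change of all genes from between -0.051 and -0.0061 to -0.53 for GM-TC, -0.54 for GM-noTC, -0.83 for M-TC and -0.73 for M-noTC.

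Among the 10 genes, LPS gave 6 higher and 0 lower calls in GM-TC, where 32.8% of all genes were called higher and 34.2% lower. These went to 2 without GM-TC-LPS replicate 1, to 8 without replicate 2 of that group, and to 4 higher and 0 lower with scaling by library size only. In GM-noTC, 2 were higher and 0 lower (33.6% and 34.0%). In M-TC, 3 were higher and 2 lower (37.6% and 36.4%), going from 5 calls to 3 without either M-TC-LPS library and to 2 higher and 3 lower with scaling by library size only. In M-noTC, 4 were higher and 0 lower (36.4% and 35.9%), going to 2 without either M-noTC library and to 1 higher and 1 lower with scaling by library size only. Where edgeR called 0 lower, 0 were also lower at an unadjusted p under 0.05 and 0 with DESeq2. DESeq2 called 5 higher in GM-TC and 3 in M-noTC. Of all genes called, 48.9% (GM-TC), 49.7% (GM-noTC), 50.9% (M-TC) and 50.3% (M-noTC) were higher, against 21.5%, 20.5%, 19.1% and 19% with scaling by library size only.

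The LPS response of Thbs1 was larger in GM than in M cells on both dishes, by 1.42 (SE 0.107, adjusted p = 4.7e-10) on TC and 0.94 (SE 0.111, adjusted p = 5.2e-07) on noTC on the log2 scale. That of Fn1 on TC was smaller in GM cells, with a difference of -1.50 (SE 0.273, adjusted p = 0.00012). On noTC the difference for Fn1 was 0.31 (SE 0.18, adjusted p = 0.2), and it passed with scaling by library size only (0.53, adjusted p = 0.028), without the expression filter (0.33, 0.0053) and in a fit of those 8 libraries alone (0.31, 0.0062). Its direction turned, to -0.30 (adjusted p = 0.25), when the shares of 0.675% (GM) and 0.6% (M) were taken off the noTC steady state libraries. In all, 2 of the 10 genes were called higher and 1 lower for this difference on TC (17.8% and 23.3% of all genes), 5 in all without GM-TC-LPS replicate 2 or without M-TC replicate 2, and 1 higher and 0 lower on noTC (16.9% and 19.3%). On noTC edgeR gave 0 lower calls at an unadjusted p under 0.05 and DESeq2 gave 1, Dcn. With scaling by library size only the share of higher calls among all genes called went from 43.2% to 78.9% on TC and from 46.6% to 73.2% on noTC, and the median of all genes was 0.30 and 0.19.

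The Fn1 values of M cells were a small share of those elsewhere. Fn1 stood at 0.444% and 0.381% of its mean over the other libraries in M-TC and at 1.66% to 2.58% in the other 6 M libraries. In those 6 libraries, no gene with a mean of 100 CPM or more elsewhere was below 0.433% to 0.606% of that mean, while in M-TC 10 and 9 such genes were under 0.1%. After that lowest share was subtracted from each library outside the TC steady state, an alternative chosen after seeing the data, the M-TC-LPS libraries had 6.06 and 7.14 CPM of Fn1, and the M-noTC libraries 10.9 and 9.63. Its LPS response in M-TC was then 2.34 (adjusted p = 4.6e-08), and its difference in LPS response on TC was -0.94 (adjusted p = 0.013). For Thbs1, whose M libraries held 5.19% to 12% of the mean elsewhere, no call changed.

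The dish was compared with a test in M cells after LPS. Col4a6 was higher on noTC, by 1.66 (SE 0.235, adjusted p = 1.9e-05), and Thbs1 was lower, by -0.28 (SE 0.0831, adjusted p = 0.018). These were 1 higher and 1 lower call of 10, with 10.4% and 12.9% of all genes. The call of Thbs1 was lost without M-TC-LPS replicate 2 (adjusted p = 0.12), without M-noTC-LPS replicate 2 (0.13) and with scaling by library size only (0.11), which moved the share of higher calls among all genes called from 44.5% to 70.5%. Fn1 differed by 0.43 (SE 0.163, adjusted p = 0.06), and passed the threshold with scaling by library size only (0.52, adjusted p = 0.028), without the expression filter, in a fit of these 4 libraries alone, and after the subtraction (0.64, adjusted p = 0.014).

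In the remaining comparisons of dishes, from which Fn1, Dcn, Hspg2 and Col5a2 had been singled out earlier, values are given with no test. Fn1 was higher on noTC than on TC by 1.67 (SE 0.0994) in GM, 1.38 (SE 0.0976) in GM after LPS and 2.53 (SE 0.23) in M. The last went to 1.92 when the share of 0.6% was taken off M-noTC and to 2.16 after the subtraction above. Thbs1 was higher on noTC in GM cells, by 0.65 (SE 0.0641) at steady state and 0.83 (SE 0.0601) after LPS, and lower on noTC in M cells, by -0.93 (SE 0.0948). Col4a6 was higher on noTC in M cells by 1.44 (SE 0.214). For the neighbouring Col4a5, the M-TC libraries had 20.3 and 20.6 CPM, M-noTC had 49.3 and 46.8, M-TC-LPS had 11.4 and 15.7, M-noTC-LPS had 36.8 and 33.9, and the GM libraries had at most 1.88. With scaling by library size, its M groups stood in the same order as those of Col4a6, with no overlap between them. With TMM scaling this order and separation held for neither gene. For Col4a5, M-TC then overlapped with M-TC-LPS, and M-noTC lay below M-noTC-LPS.

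The other 7 genes had at most 3.66 CPM in any library. Their sum was highest in GM-TC-LPS replicate 1, at 17.1 CPM against 4.72 in replicate 2 of that group, a ratio of 3.63. The GM-TC libraries had 7.93 and 5.80 CPM, the M-TC libraries had 9.47 and 3.85, and the sum was 1.81 to 4.72 CPM in the 11 libraries that are neither TC steady state nor GM-TC-LPS replicate 1. For 5 of the 7 genes GM-TC-LPS replicate 1 was the highest library. In bulk samples a change in the number of expressing cells and in RNA per cell cannot be told apart.

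**Figure D3:**
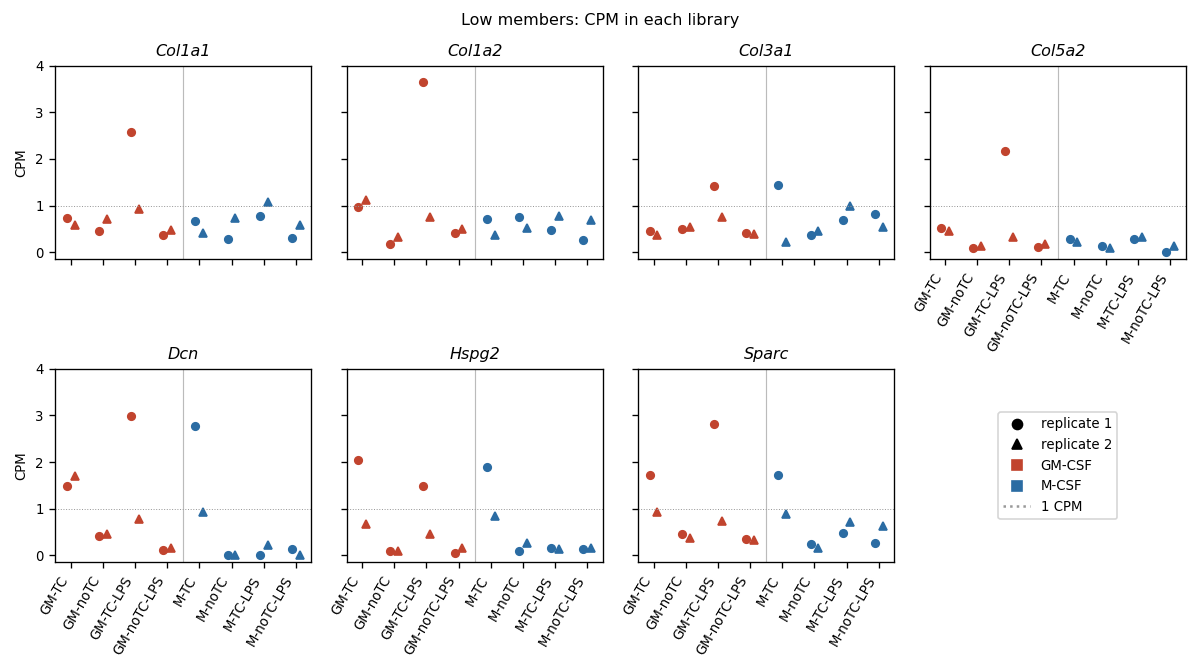
CPM (vertical axis) of the 7 low genes in each of the 16 libraries by group (horizontal axis), with red for GM, blue for M, circles for replicate 1, triangles for replicate 2 and a dotted line at 1 CPM. GM-TC-LPS replicate 1 is the highest library for Col1a1, Col1a2, Col5a2, Dcn and Sparc, and TC steady state libraries are raised for Dcn, Hspg2 and Sparc.

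Sparc (chromosome 11, 55394500 to 55423183, minus strand) encodes a collagen-binding glycoprotein that regulates how cells meet the matrix. The GM-TC libraries had 1.71 and 0.938 CPM of Sparc, GM-TC-LPS had 2.83 and 0.743, M-TC had 1.72 and 0.885, and the level was 0.159 to 0.723 in the 10 libraries of the other groups. The TC steady state groups lay above those 10 libraries, and 1 of the 2 GM-TC-LPS libraries lay above all others. Sparc was called higher after LPS in M-noTC (1.90, SE 0.821, adjusted p = 0.039), from 5 and 5 counts to 6 and 15.

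Col1a1 (chromosome 11, 94936224 to 94953042, plus strand) and Col1a2 (chromosome 6, 4504814 to 4541544, plus strand) encode both chains of the fibrils of collagen I. For Col1a1, GM-TC had 0.742 and 0.580 CPM, GM-noTC had 0.459 and 0.707, GM-TC-LPS had 2.58 and 0.929, and GM-noTC-LPS had 0.376 and 0.467. Its M libraries ranged from 0.280 to 1.08 CPM, with the highest levels, 0.777 and 1.08, in M-TC-LPS. The GM-TC-LPS libraries lay above the other GM libraries, by a wide margin for replicate 1 alone. For Col1a2, GM-TC had 0.970 and 1.12 CPM, GM-noTC had 0.184 and 0.333, GM-TC-LPS had 3.66 and 0.743, GM-noTC-LPS had 0.414 and 0.503, and the M libraries had 0.259 to 0.768. The second GM-TC-LPS library was thus below both GM-TC libraries.

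Col3a1 (chromosome 1, 45311538 to 45349706, plus strand), which encodes collagen III, was at 0.456 and 0.357 CPM in the GM-TC libraries, while GM-noTC had 0.505 and 0.541, GM-TC-LPS had 1.41 and 0.743, and GM-noTC-LPS had 0.414 and 0.395. M-TC had 1.44 and 0.208 CPM, M-noTC had 0.374 and 0.445, M-TC-LPS had 0.700 and 0.994, and M-noTC-LPS had 0.821 and 0.534. The M-TC replicates thus differed more than any other pair, the first holding 26 counts and the second 4. Col5a2 (chromosome 1, 45374321 to 45503282, minus strand), a chain of the fibril-nucleating collagen V, had 2.16 CPM in GM-TC-LPS replicate 1, from 52 counts, and 0 to 0.513 CPM in the other libraries. That library held 41.6% of all Col5a2 counts.

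Dcn (chromosome 10, 97479609 to 97518143, plus strand) encodes decorin, a small proteoglycan that binds collagen fibrils. GM-TC had 1.48 and 1.70 CPM of Dcn, GM-noTC had 0.413 and 0.458, GM-TC-LPS had 2.99 and 0.780, and GM-noTC-LPS had 0.113 and 0.144. M-TC had 2.77 and 0.937 CPM, both M-noTC libraries had 0 counts, M-TC-LPS had 0 and 5 counts, and M-noTC-LPS had 3 and 0. Its levels above 0.5 CPM were thus in the 6 libraries of GM-TC, M-TC and GM-TC-LPS. Hspg2 (chromosome 4, 137468769 to 137570630, plus strand), which encodes the basement membrane proteoglycan perlecan, was at 2.05 and 0.670 CPM in the GM-TC libraries, while M-TC had 1.88 and 0.833, GM-TC-LPS had 1.496 and 0.446, and the level was 0.0376 to 0.254 in the other 10 libraries. The same 6 libraries were high for both proteoglycans.

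Among the low genes, LPS was called to raise Col1a1 (1.88, SE 0.498, adjusted p = 0.0022), Col3a1 (1.87, SE 0.598, 0.0084), Col5a2 (1.83, SE 0.645, 0.016) and Col1a2 (1.52, SE 0.531, 0.015) in GM-TC, although the libraries of the groups overlapped for the last 2. Without GM-TC-LPS replicate 1 none of the 4 passed, with Col1a1 at 0.98 (adjusted p = 0.15), Col3a1 at 1.36 (0.12), Col1a2 at -0.014 (0.99) and Col5a2 at -0.030 (0.98). The calls of that comparison then went from 6 to 2, Fn1 and Thbs1. The calls of Col3a1 and Col5a2 were also lost without GM-TC replicate 2, that of Col1a2 without GM-TC replicate 1, and those of Col1a2 and Col5a2 with scaling by library size only. Col5a2 passed the expression filter through GM libraries alone, since M libraries held at most 7 counts. Its p-value between GM and M cells is thus a description. On TC after LPS, Dcn, Hspg2, Col5a2, Col1a2 and Sparc were called higher in GM than in M cells, by 4.06 (SE 0.874, adjusted p = 0.00033), 2.64 (SE 0.791, 0.0053), 2.015 (SE 0.684, 0.013), 1.79 (SE 0.565, 0.0081) and 1.54 (SE 0.541, 0.016). Without that library only Dcn of these still passed (2.81, adjusted p = 0.02), and the calls went from 8 to 4. They went to 5 without M-TC-LPS replicate 1, where Col1a2, Col5a2 and Sparc were lost, and Col5a2 was also lost without M-TC-LPS replicate 2.

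In M-TC, LPS was called to lower Dcn by -3.25 (SE 0.930, adjusted p = 0.0033) and Hspg2 by -2.35 (SE 0.797, adjusted p = 0.011) and to raise Col1a1 by 1.595 (SE 0.571, adjusted p = 0.015). When each of the 4 libraries was left out in turn, Dcn lost the call without M-TC replicate 1 (-2.28) or M-TC-LPS replicate 1 (-2.17), Hspg2 without M-TC replicate 1 (-1.66) or either M-TC-LPS library, and Col1a1 without M-TC replicate 2 or M-TC-LPS replicate 2. Col1a1 was also lost with scaling by library size only (0.78, adjusted p = 0.21). The cardiac muscle list moved with Dcn and Hspg2, from 119 and 69.6 CPM in the M-TC libraries to 2.06 and 1.81 after LPS. It also fell in GM-TC, from 71.4 and 38.2 CPM to 1.29 and 1.52. There Dcn was at 0.70 (SE 0.556) and Hspg2 at 0.018 (SE 0.557), neither called. Without GM-TC-LPS replicate 1 they were at -0.55 and -1.07. The part of the list in these values was not tested. In M-noTC, Col3a1 was called higher after LPS (1.41, SE 0.611, adjusted p = 0.041), as was Sparc. Both were lost without either M-noTC library and with scaling by library size only, Col3a1 also without M-noTC-LPS replicate 1 and Sparc also without M-noTC-LPS replicate 2 (1.13, adjusted p = 0.4). The LPS response of Dcn on TC was higher in GM than in M cells by 3.95 (SE 1.1, adjusted p = 0.0058), and the call was lost without GM-TC-LPS replicate 1 (2.71, adjusted p = 0.073), M-TC replicate 1 (2.99, 0.061) or M-TC-LPS replicate 1 (2.865, 0.06). In M cells after LPS 0 of the 7 low genes were called between the dishes by edgeR, 0 had an unadjusted p under 0.05, and DESeq2 called 0 of the 5 to which it gave an adjusted p, all but Col5a2 and Hspg2.

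Without a test, Dcn was lower on noTC than on TC in M cells by at least 31.8-fold against the floor of 3 counts (at least 16.3-fold without M-TC replicate 1), and lower by -1.87 (SE 0.695) in GM and -3.79 (SE 0.81) in GM after LPS. Hspg2 was lower on noTC by -3.83 (SE 0.866) in GM, -2.79 (SE 0.722) in M and -3.30 (SE 0.841) in GM after LPS, and Sparc by -1.64 (SE 0.621), -2.71 (SE 0.706) and -2.375 (SE 0.583). Without GM-TC-LPS replicate 1 the values in GM after LPS were -2.55 for Dcn, -2.21 for Hspg2, -1.15 for Col5a2 in place of -3.002, and -1.14 for Sparc. In GM after LPS Hspg2 was at -4.51 without GM-noTC-LPS replicate 2. At steady state in GM, Hspg2 was at -2.88 and Sparc at -1.19 without GM-TC replicate 1. In M without M-TC replicate 1, Hspg2 was at -2.11 and Sparc at -2.17, and Hspg2 was at -3.75 without M-noTC replicate 2.

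Markers of other cells were set beside the low genes. The 22 cardiac muscle genes were all detected in each TC steady state library, where they summed to 71.4 and 38.2 CPM for GM-TC and 119 and 69.6 for M-TC, and in each pair the replicate with more of them had the higher sum of low genes. In GM-TC-LPS replicate 1 they summed to 1.29 CPM with 14 genes at 0, beside its low-gene sum of 17.1 CPM. The list of 20 fibroblast and stromal genes summed to 289 to 475 CPM in GM and 6.03 to 34.1 in M. In GM most of it came from Fstl1 (260 to 431 CPM). In M cells after LPS Pdgfrb was the larger, with 395 to 698 counts in a library against 71 to 94 of Fstl1. Without Fstl1, Pdgfrb and Ccdc80, the other 17 fibroblast genes summed to 7.77 CPM in GM-TC-LPS replicate 1, 3.12 to 5.71 in the TC steady state libraries and 1.46 to 6.59 in the other 11. Among them, Prrx1, a transcription factor of limb and stromal mesenchyme, had 15 counts in GM-TC-LPS replicate 1 and at most 4 elsewhere. Aebp1 was also highest there, at 42 counts against 25 in GM-TC replicate 2. Most of the list was not highest there. Pdgfra had 67 counts against 95 in GM-noTC-LPS replicate 2, Pi16 6 against 20 in GM-noTC replicate 1, and Mgp 0 against 12 in GM-TC replicate 1. Tcf21 was at 0 in every library and Mfap4 and Mfap5 did not exceed 1 count.

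**Figure D4:**
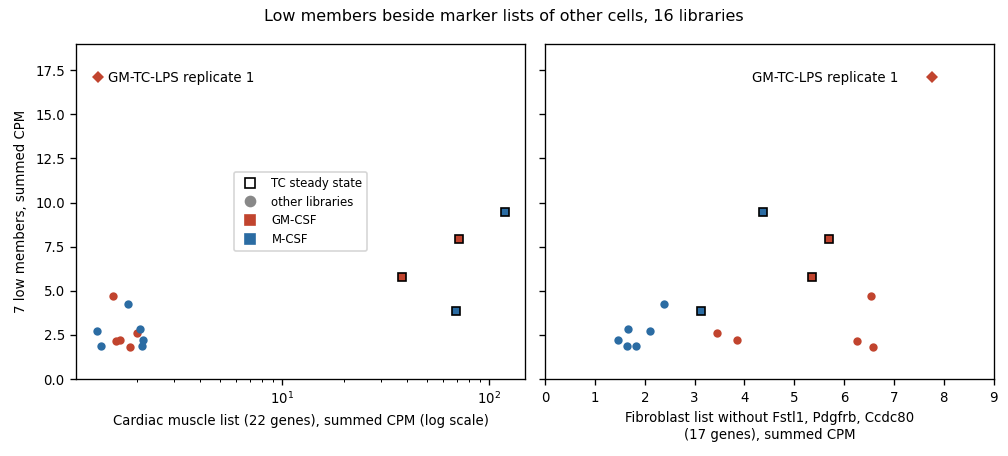
Summed CPM of the 7 low genes (vertical axes) against the summed CPM of the cardiac muscle list (left, log scale) and of 17 fibroblast genes (right) in 16 libraries, with outlined squares for TC steady state, a diamond for GM-TC-LPS replicate 1 and circles for the others. The diamond lies at 17.1 CPM of low genes with 1.29 CPM of cardiac genes and 7.77 CPM of fibroblast genes.

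The 10 smooth muscle and pericyte genes summed to 4.27 to 6.70 CPM in the TC steady state libraries, 4.03 in GM-TC-LPS replicate 1 and 1.64 to 3.81 in the other 11, so the 4 libraries with the highest sums of low genes were among the 5 highest for this list. The 12 endothelial genes were mostly Vwf and Kdr, and the other 10 summed to 1.09 to 4.73 CPM over all libraries. Of the 8 osteoblast genes, those other than Runx2 summed to at most 0.685 CPM. The 11 megakaryocyte and platelet genes summed to 1.11 to 35.8 CPM, and 29.6 in GM-TC-LPS replicate 1. The part of these cells in the values of the low genes was not tested.

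The genes with the most similar pattern over the 16 libraries are given as a description, since all libraries share depth and groups. Pearson's r of log2(CPM + 0.5) with Fn1 was 0.985 for Jaml, 0.983 for Il2ra, 0.982 for Pdpn, and 0.979 for Aqp9 and Lrrc32. With Thbs1 it was 0.985 for Pmepa1 and Sema3a, 0.981 for P2ry14, 0.980 for Naip2 and 0.979 for Igf2bp1. With Sparc it was 0.895 for Dcn, 0.890 for Hspg2, 0.877 for Bgn, 0.874 for Serping1 and 0.834 for Col5a2, so 3 of the 5 were themselves low genes of this set. With Dcn it was 0.908 for the collagen chaperone gene Serpinh1, 0.895 for Sparc, 0.881 for Hspg2, 0.851 for Bgn and 0.848 for Fbln2. For Col3a1 the highest was 0.651, for Prelp.

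Other matrix genes were counted from lists of glycoproteins, collagens, proteoglycans, collagen processing enzymes and matrix receptors, without the 10 genes above. Of 144 genes, 86 were tested. On TC, 37 of them were higher and 25 lower in GM than in M, beside 32.6% and 28.9% of all genes, with a median log2 fold change of 0.47 against 0.018 over all genes. With scaling by library size only, 32 were higher and 28 lower, with a median of 0.15 against -0.29 over all genes. Among 16 collagens, 5 were higher and 7 lower in GM, so Col4a6 was among several collagens higher in M cells. Col18a1, the collagen of which endostatin is a fragment, was lower in GM by -6.09 (SE 0.195, adjusted p = 2.4e-17), Col4a5 by -4.59 (SE 0.221, 3.9e-14) and Col23a1 by -1.575 (SE 0.205, 6.8e-07). Of 25 glycoproteins, 12 were higher and 4 lower in GM, led by Postn (7.05, SE 0.254, adjusted p = 2e-16), Mfge8 (4.35, SE 0.0571, 6.8e-24) and Nid1 (3.81, SE 0.308, 3.4e-10). Periostin is a fibronectin-binding matrix protein, Mfge8 bridges dying cells to integrins, and nidogen links laminin to collagen IV.

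Receptors for these proteins also differed between GM and M on TC, with 10 of 21 higher and 8 lower, where 32.6% of all genes were higher and 28.9% lower. Itga1, a chain of a collagen-binding integrin, was higher in GM at 63.4 ± 7.87 against 3.14 ± 0.360 CPM (TMM scaled, SD, n = 2), as was Sdc1, a cell surface proteoglycan, at 206 ± 6.90 against 18.4 ± 1.11. Its relative Sdc4 was lower, at 4.58 ± 0.0954 against 90.6 ± 0.546 CPM. Of 6 proteoglycans, 2 were higher and 1 lower, Vcan by 2.86 (SE 0.153, adjusted p = 2.7e-13), Srgn by 0.64 (SE 0.0706, 6.5e-08) and Agrn by -1.405 (SE 0.079, 6.5e-13). Of 18 collagen processing genes, 8 were higher and 5 lower, among them the crosslinking enzyme gene Lox (1.82, SE 0.0888, adjusted p = 5.4e-14) and the hydroxylase genes P3h3 (-2.39, SE 0.193, 3.6e-10) and P4ha2 (-1.77, SE 0.162, 2.8e-09).

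After LPS, 40 of the 86 genes were higher and 11 lower in GM-TC, and 36 higher and 11 lower in M-TC, where 32.8% of all genes were higher and 34.2% lower for GM-TC cells, and 37.6% higher and 36.4% lower for M-TC cells. With scaling by library size only the counts were 28 and 26 for GM-TC cells and 25 and 37 for M-TC cells, so the balance of directions rests on the scaling. The genes named next kept their direction and call under that scaling. Vcan, encoding the large proteoglycan versican, rose from 22.3 ± 4.497 to 1330 ± 85.05 CPM in GM-TC (TMM scaled, SD, n = 2) and from 3.04 ± 0.165 to 392 ± 29.2 in M-TC. Lox rose from 20.6 ± 0.493 to 582 ± 7.83 CPM in GM-TC and from 5.84 ± 0.428 to 84.8 ± 2.89 in M-TC. Sdc4 rose from 4.58 ± 0.0954 to 341 ± 13.8 CPM in GM-TC and from 90.6 ± 0.546 to 1734 ± 4.38 in M-TC, the largest change among the receptors named here in both.

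Of 16 collagens, 7 were called higher after LPS in GM-TC and 6 in M-TC by edgeR with TMM scaling, and 0 lower in both. Of all genes, 32.8% were called higher and 34.2% lower in GM-TC, and 37.6% higher and 36.4% lower in M-TC. Library size scaling gave 6 higher and 2 lower collagens in GM-TC, and 5 higher and 4 lower in M-TC. Col27a1, a fibrillar collagen, rose by 3.65 (SE 0.146, adjusted p = 9.2e-16) in GM-TC and 6.43 (SE 0.194, 3.1e-18) in M-TC, to 33.0 ± 1.02 and 37.1 ± 2.66 CPM (TMM scaled, SD, n = 2). Col4a2 rose by 2.51 (SE 0.165, 8.1e-12) and 2.06 (SE 0.121, 6.9e-13), and Col11a2 in M-TC by 3.36 (SE 0.254, 6e-11). Among collagen processing genes, Plod2, a lysyl hydroxylase gene, rose by 4.87 (SE 0.2, adjusted p = 1.5e-15) in GM-TC and 3.09 (SE 0.145, 1.1e-14) in M-TC, and P4ha1, a prolyl hydroxylase gene, by 0.97 (SE 0.0581, 1.5e-12) and 1.62 (SE 0.0586, 9.2e-17), against 0.49 and 0.79 under library size scaling.

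The glycoproteins with the largest LPS changes at 5 CPM or more in GM-TC were Thbs4 (to 6.02 ± 1.20 CPM from 0.0201 ± 0.0285, TMM scaled, SD, n = 2), Tnc, which encodes tenascin-C (3.47, SE 0.234, adjusted p = 1.2e-11), and the laminin chain gene Lamc1 (1.32, SE 0.0836, 3.9e-12). Those in M-TC were the fibrillin gene Fbn1 (5.02, SE 0.263, 7.8e-14), Emilin1, which was lower (-1.67, SE 0.0761, 6.7e-15), and Spp1, which encodes osteopontin and reached 13140 ± 729.9 CPM from 6275 ± 376 (TMM scaled, SD, n = 2), with a log2 fold change of 0.24 (adjusted p = 0.00017) under library size scaling. Among the receptors, Itgav, a chain of integrins that bind fibronectin, rose by 2.55 (SE 0.0686, adjusted p = 6.6e-19) in GM-TC and 2.39 (SE 0.0651, 5.2e-19) in M-TC. Itga4, whose integrin also binds fibronectin, rose by 2.995 (SE 0.0736, 1.4e-19) in GM-TC, and the hyaluronan receptor gene Cd44 by 3.12 (SE 0.0487, 3.3e-23) in M-TC. Agrn and Srgn rose in both, by 2.80 (SE 0.0743, 5.4e-19) and 1.85 (SE 0.0699, 3.1e-16) in GM-TC and by 2.14 (SE 0.063, 2.1e-18) and 2.47 (SE 0.0718, 1.6e-18) in M-TC.

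**Figure D5:**
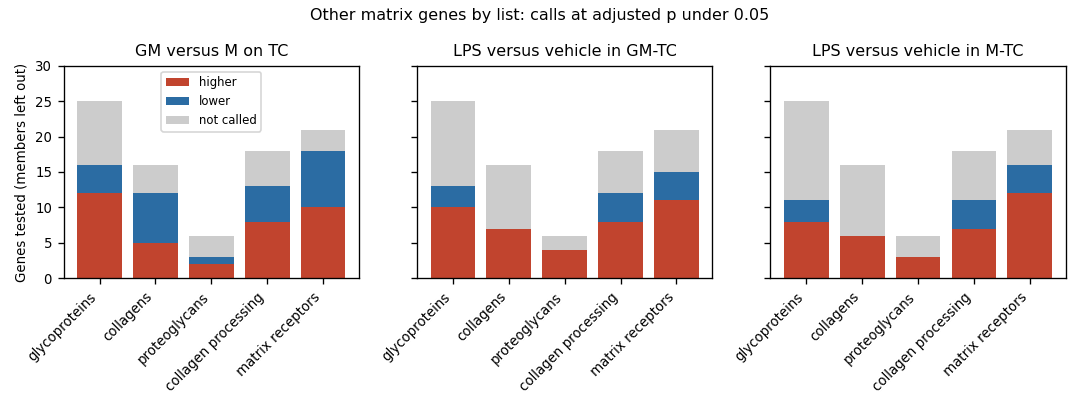
Number of tested matrix genes (vertical axis, the 10 genes left out) called higher (red), lower (blue) or not called (grey) at an adjusted p under 0.05 in 5 lists (horizontal axis) for 3 comparisons with TMM scaling. Of 16 collagens, 5 were called higher and 7 lower in GM versus M on TC, where 32.6% and 28.9% of all genes were. After LPS, 7 collagens were called higher in GM-TC and 6 in M-TC, where 32.8% and 37.6% of all genes were.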

How the data were processed

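RNA was extracted from cultured BMDMs and libraries of poly(A) RNA were sequenced. The authors trimmed reads with fastp 0.18.0, aligned them with HISAT2 and quantified genes with RSEM, per the labels and the methods. The deposited values are expected counts without normalization, and they were rounded to whole counts. The genome build, annotation and strand setting are not given in the sources used here.

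Groups came from the labels. edgeR 4.0.16 in R 4.3.3 was used with filterByExpr, TMM factors and a quasi-likelihood fit of 8 group means over 16 libraries. Contrasts were GM versus M, LPS versus vehicle, noTC versus TC in M after LPS, and growth factor by LPS interactions, with BH adjustment over 12514 genes. Positions came from GENCODE and promoters from RefSeq, matched by symbol, on GRCm38. The step was tested on simulated counts.

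The genes, lists and tests were chosen with earlier results of these data known. All 10 genes are reported; the other matrix genes named are the 3 or fewer per list with the largest change among those called whose groups did not overlap and whose level reached 5 CPM. Alternatives were other scaling, DESeq2 1.42.0, no filter, only the compared libraries, a replicate block, leaving out each replicate, and subtraction of a share of the other libraries. Protein sequences were not used here.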

Additional observations from a re-analysis of the deposited data

Results flagged for a closer look

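For 4 values the LPS response differed between GM and M cells by edgeR's test of the difference itself, with BH adjustment over all genes. For Fn1 on TC the difference of log2 fold changes was -1.50 (SE 0.273, adjusted p = 0.00012), from a rise of 1.38 for GM-TC cells against 2.88 for M-TC cells. The M-TC libraries held 45 and 41 counts of Fn1. For Thbs1 it was 1.42 (SE 0.107, adjusted p = 4.7e-10) on TC and 0.94 (SE 0.111, adjusted p = 5.2e-07) on noTC, and both values kept their call when any library was left out. For Dcn on TC it was 3.95 (SE 1.1, adjusted p = 0.0058), a call that was lost in 3 of the 8 fits that left out a library, those without GM-TC-LPS replicate 1 (2.71, adjusted p = 0.073), M-TC replicate 1 (2.99, 0.061) or M-TC-LPS replicate 1 (2.865, 0.06). The cardiac muscle list stood at 119 and 69.6 CPM in the M-TC libraries and at 2.06 and 1.81 in M-TC-LPS. In GM-TC it stood at 71.4 and 38.2 CPM, and in GM-TC-LPS at 1.29 and 1.52. Its part in the value of Dcn was not tested. With 2 libraries in a group no outlier test was made.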

How the results depend on the processing

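With DESeq2's size factors in edgeR, and with either subtraction, all counts of called genes stayed within 1.5 times. With scaling by library size only, the calls upon LPS in M-noTC went from 4 to 2 and those of the interaction on noTC from 1 to 2. The interaction on noTC also gave 3 calls without the expression filter, 2 in a fit of the compared libraries alone and 2 with DESeq2. Col4a6 upon LPS in M-noTC went from 0.17 to -0.56 with scaling by library size only. The cause was not tested.

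Leaving out each library in turn, so that the lone library of a group is assumed to vary like the others, gave 4 to 9 calls for GM versus M on TC after LPS, 2 to 8 for LPS in GM-TC, 3 to 4 for LPS in M-TC, 2 to 3 for LPS in M-noTC, 1 to 2 for noTC versus TC in M after LPS, and 2 to 5 for the interaction on TC. For LPS in GM-TC, Col1a2 lay between -0.014 and 2.27 and Col5a2 between -0.030 and 2.64. GM-TC-LPS replicate 1 gave the lowest count when left out in the first, second and last of these comparisons. In the last it shared that place with M-TC replicate 1 and M-TC-LPS replicate 1. Leaving out a library gave 3 to 4 calls for GM versus M on TC and moved no count in the other 4 comparisons with edgeR's test.

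Deviations of libraries with the same replicate number correlated between -0.066 and 0.043 across genes, which are not independent replicates. With 2 libraries a group this cannot show whether libraries of the same number were prepared together, and the labels do not say. With a replicate block all 11 counts stayed within 1.5 times, and 1 gene changed its call, Hspg2 for the interaction on TC (2.36, adjusted p = 0.039). With 2 libraries a group and under 100 counts of each low gene in any library, depth limits the 7 low genes.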
